A study of Mus musculus with 15 samples.

Results

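The unfolded protein response (UPR) and ER folding genes described here are 34 named genes, chosen as ER sensors, ER chaperones and folding enzymes, translocon subunits, ER-associated degradation (ERAD) components and genes of the PERK-ATF4 branch. They were looked up by gene identifier in 15 RNA-Seq libraries of mouse pancreas, and all 34 were found among the 15175 genes of the MC table and the 49585 genes of the HC and KMC tables. All 34 passed the filter on low counts in each comparison. No member passed the edgeR test at an adjusted p of 0.05 in MC, in HC or in KMC mice. Of all genes, 0%, 0.739% and 0.0191% passed it. DESeq2, which the study used, called 4, 1 and 18 members lower, against 0.632%, 2.8% and 3.86% of all genes. In MC libraries 28 of the 34 were below the control after TMM scaling, but 23 were above it when libraries were scaled by their total counts alone. Eif2ak3, Atf4, Chac1 and Herpud1, the 4 members with the smallest p, were below the control both ways. In KMC libraries all 34 were below KC after TMM scaling, and 20 were above KC by total counts alone. Libraries labelled HC differed little from their controls, and Edem1 had the smallest p.

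The mice were C57BL/6. By the study's genotypes, HC, MC, KC and KMC mice carried Bac-cre, a tamoxifen-inducible Cre under the acinar elastase I promoter. It switches on a transgene of HPK1 (HC) or of its kinase-dead mutant M46 (MC) in acinar cells, on top of the endogenous gene. KC mice are labelled Ras/B, and KMC mice, labelled M46/Ras/B, carried M46 as well. The MC experiment had 3 MC libraries (label HPK1-M46 transgenic) and 3 controls (label B control), all at 2 months. The HC experiment had 3 libraries labelled HPK1/B and 2 controls labelled WT, all at 4 months, so whether those controls carried Bac-cre is not given in the labels. The tumor experiment had 2 KMC libraries at 9 months and 2 KC libraries at 15 months. According to the study, HC and MC mice received cerulein, a cholecystokinin analog given in excess to inflame the pancreas. Its text gives the littermate controls both as treated with cerulein and as injected with PBS, and the labels name no treatment, so whether genotype alone separates these groups is not settled. The study also says that the KMC and KC samples were pancreatic ductal adenocarcinoma (PDAC), whereas the labels name the tissue of all samples as pancreas. Each library held RNA pooled from 3 mice, so the spread between libraries is smaller than that between single mice, and nothing says that pools shared no animal or extraction.

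Acinar cells make more secreted protein than almost any other cell, and they fold it in a very large ER. When unfolded protein builds up, IRE1 (Ern1), PERK (Eif2ak3) and ATF6 (Atf6) signal from the ER membrane. IRE1 splices Xbp1 mRNA and ATF6 is cut in the Golgi, and both then raise chaperones and ERAD genes. PERK slows translation and favors translation of ATF4, which drives amino acid synthesis genes and, through CHOP (Ddit3), genes of ER stress-linked cell death. Counts per gene show neither the splicing of Xbp1 nor the translation of Atf4.

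Promoters of the members are shown first, since their letters are independent of any RNA level measured here. RefSeq windows from 250 bases before to 50 bases after the start site (GRCm38.p6) were matched for 29 of the 34 members, without Atf6, Hyou1, Manf, Sec61a1 and Derl1. The ER stress response element (ERSE, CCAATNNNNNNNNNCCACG on either strand) was in 0.119% of 32851 mouse windows and in 9 members. These were 7 of 13 chaperones and folding enzymes and 2 of 6 ERAD genes (Syvn1 and Derl3), and none of 5 PERK-ATF4 genes. The 6 of the 9 with the highest mean CPM over the 15 libraries (counts scaled to library size, not divided by gene length) are printed 5′ to 3′ on the gene's strand, with both ends of the element in capitals (CGTGG and ATTGG where it lies on the opposite strand).
Hspa5, chr2:34772013-34772055, plus strand: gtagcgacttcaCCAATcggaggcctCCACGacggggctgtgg
Calr, chr8:84847063-84847105, minus strand: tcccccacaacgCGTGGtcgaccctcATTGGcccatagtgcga
Canx, chr11:50325788-50325830, minus strand: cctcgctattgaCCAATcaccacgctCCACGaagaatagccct
Dnajc3, chr14:118937815-118937857, plus strand: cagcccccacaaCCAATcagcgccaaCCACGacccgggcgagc
Hsp90b1, chr10:86705521-86705668, minus strand: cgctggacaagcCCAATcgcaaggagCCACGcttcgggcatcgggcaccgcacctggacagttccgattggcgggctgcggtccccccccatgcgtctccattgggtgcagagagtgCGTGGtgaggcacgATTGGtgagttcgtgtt
Pdia6, chr12:17266479-17266521, plus strand: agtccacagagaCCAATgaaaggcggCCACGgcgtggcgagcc
Hsp90b1 held 2 elements, 1 in each direction. In Hspa5 the element began at -65 from the start site of the RefSeq transcript. A match describes the letters only and does not show that a factor binds there.

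The C/EBP-ATF response element (CARE, TGATGNAA on either strand), to which ATF4 dimers are known to bind, was in 3.97% of all windows and in 4 members. They were Trib3, Asns and Chac1 of the PERK-ATF4 branch and Herpud1 of ERAD, and no chaperone. Herpud1 also held the compact ERSE-II (ATTGGNCCACG), which was in 0.0365% of windows and in 1 other member, Dnajb11. No member window held the XBP1 element TGACGTGG, found in 0.676% of windows. The elements are in capitals below.
Trib3, chr2:152344029-152344056, minus strand: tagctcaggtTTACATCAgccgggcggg
Asns, chr6:7693215-7693242, minus strand: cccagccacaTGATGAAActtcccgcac
Chac1, chr2:119351039-119351066, plus strand: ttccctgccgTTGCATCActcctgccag
Herpud1, chr8:94386305-94386399, plus strand: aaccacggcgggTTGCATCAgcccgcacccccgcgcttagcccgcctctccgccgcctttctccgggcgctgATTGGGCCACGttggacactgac
The Herpud1 stretch, added after its values were seen, holds a CARE followed by an ERSE-II.

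Library totals ran from 29766575 to 38745907 counts, so that even the lowest count of a member, 101 reads of Trib3 in KC 1, lies far above the floor of 3 counts. Map4k1, which encodes HPK1, was at 6.79 to 8.32 CPM in MC and 2.34 to 4.14 in their controls, and at 5.92 and 11.4 in KMC against 0.545 and 1.55 in KC. It was lower in libraries labelled HC (5.05 to 7.93) than in their controls (11.5 and 15.4), against the direction that the label implies, and counts do not tell the transgene from the endogenous gene. The leukocyte gene Ptprc moved the same way as Map4k1 in all 3 tables. Xist was at 306 and 405.5 CPM in KMC and below 1 CPM in both KC libraries, and Ddx3y, a Y-linked gene, was at 10.7 and 17.3 CPM in KC and at 0 counts in KMC, so KMC against KC is also female-type against male-type tissue, and library HC 3 was male-type among female-type libraries. Neither Xist nor Ddx3y was listed in the MC table, so the sex type of its libraries could not be read from them. The list of acinar enzyme genes took 40.3 to 58.9% of counts in the MC table and 25.7 to 70.8% in the KMC table. It took only 7.19 to 10.5% in the HC table, where all 30 listed genes had counts in 4 of the 5 libraries and Cela3a was at 0 in HC control 2.

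The members' own share of all counts was narrow throughout: 0.750 to 0.886% in MC, 0.79 to 0.821% in their controls, 0.701 to 0.798% in libraries labelled HC, 0.706 to 0.822% in their controls, 0.745 and 0.748% in KMC, and 0.665 and 0.743% in KC. The groups overlapped in the MC and HC tables, and both KMC libraries lay just above both KC libraries. In bulk tissue, fewer cells of a type and less RNA per cell cannot be told apart, and this holds for every value below.

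**Figure D1:**
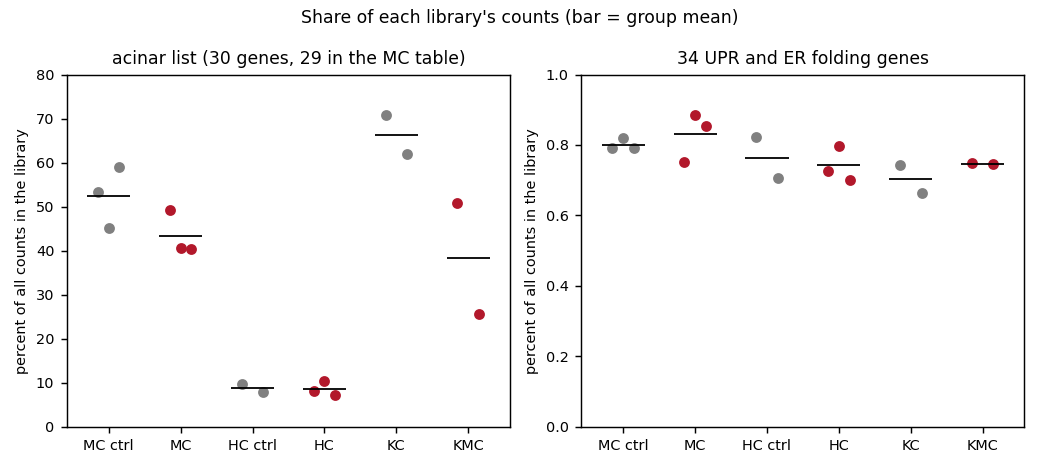
Percent of all counts in each library (vertical axis, starting at 0) taken by the acinar enzyme list (left) and by the 34 members (right). Points are single libraries, bars are group means, grey marks control or KC libraries and red marks MC, HC or KMC libraries. The acinar share ranged from 7.19 to 70.8% over the 15 libraries and the members' share from 0.665 to 0.886%.

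Within a library the members were far from equally abundant. Per kilobase of exon, P4hb, a protein disulfide isomerase, led the MC controls at 395 ± 121 CPM per kb (SD, n = 3), followed by the transcription factor gene Xbp1 at 365 ± 89.1 and Hspa5 at 213 ± 41.1. P4hb and Xbp1 did not differ beyond their spread. In MC libraries Xbp1 (325 ± 40.5) and P4hb (321 ± 69.9) were level. P4hb led both groups of the HC table, and also KC at 1012 ± 445 CPM per kb (SD, n = 2) and KMC at 312 ± 176. The lowest members per kilobase were Derl2 in MC controls and MC, Chac1 in the HC table, Derl2 in KC and Trib3 in KMC.

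The MC comparison asks how M46 in acinar cells bears on these genes. Of the 34 members, 28 were below and 6 above the control, with a median log2 fold change of -0.26 against -0.02 over all 13902 genes tested. With library size alone the split was the opposite, 23 above and 11 below, with a median of 0.11 against 0.29 over all genes. No gene of any kind passed the edgeR test (0% called), and the smallest adjusted p was 0.0782. At an unadjusted p under 0.05 there were 6 members, all lower, against 5.46% of all genes that were lower at that p. DESeq2 called 4 members lower (Eif2ak3, Atf4, Herpud1 and Chac1) against 0.632% of all genes called lower. In 6 members every MC library was below every control, which was so for 9.89% of all genes, and in none was every MC library above, against 10.9% of all genes. By total counts 3 members were apart and lower (Eif2ak3, Herpud1 and Asns, against 0.762% of all genes) and 3 apart and higher (Xbp1, Dnajb11 and Sec61b, against 12% of all genes).

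Among the sensors, Eif2ak3 (PERK, chr6:70844515-70905245 of GRCm38) had the smallest p of all members. It was at 151, 123 and 134 CPM in MC libraries and at 246, 215 and 281 CPM in controls. The groups did not overlap, also when CPM was taken from total counts. The log2 fold change was -0.86 ± 0.15 (SE), that is 1.81 times lower, with an edgeR adjusted p of 0.0843, which ranged from 4.63e-05 (DESeq2) to 0.405 over the alternatives. Xbp1 was at 1208, 976 and 983 CPM in MC and 1179, 898 and 1476 in controls, so the groups overlapped widely. Its log2 fold change of -0.17 ± 0.23 became 0.19 with library size alone, and by total counts every MC library was above every control. Ern1 (-0.33 ± 0.14) and Atf6 (-0.20 ± 0.22) were lower by less, and both were above 0 with library size alone.

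The 15 chaperones and folding enzymes split by gene. Hspa5 (BiP), the main ER Hsp70 and the chaperone that holds the sensors inactive, was at 517, 703 and 770.5 CPM in MC and 1095, 756 and 856 in controls. The highest MC library lay just above the lowest control, and the log2 fold change was -0.44 ± 0.23 (adjusted p = 0.391). Dnajb9, an Hsp40 co-chaperone of BiP that represses IRE1, had the smallest p of the group. It was at 23, 28.5 and 26.5 CPM in MC and 33.8, 28.6 and 35.9 in controls. Every MC library was below every control, the closest pair by less than 1 CPM, and the log2 fold change was -0.33 ± 0.14 (adjusted p = 0.321), which turned to 0.03 with library size alone. The lectin chaperones Calr (0.14 ± 0.18) and Canx (0.00 ± 0.12), Hsp90b1 (GRP94, 0.04 ± 0.13) and the disulfide isomerases Pdia3 (0.14 ± 0.17), Pdia4 (0.16 ± 0.16) and Pdia6 (0.11 ± 0.14) made up the 6 members at or above the control. These 6 were the only members with a log2 fold change above 0 under all 5 scalings tried (TMM, a housekeeping list, library size with and without acinar genes, and the size factors of DESeq2).

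The translocon members, which form or adjoin the channel for nascent secretory proteins, were close to the controls. Sec61b was at 93, 73.8 and 78.9 CPM in MC and 90.1, 75.5 and 117 in controls (log2 fold change -0.20 ± 0.18, adjusted p = 0.589). Sec61a1, the channel subunit, was at 145, 159 and 160 CPM in MC and 170, 147 and 231 in controls (-0.24 ± 0.18, adjusted p = 0.528). The groups overlapped for both, but by total counts every MC library was above every control for Sec61b. Both fold changes became positive with library size alone (0.15 for Sec61b and 0.14 for Sec61a1).

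All 7 ERAD genes were below the control after TMM scaling, with a median of -0.51. Herpud1, which organizes the ERAD complex at the ER membrane, was at 154.5, 134 and 117 CPM in MC and 239, 172 and 296 in controls. The groups did not overlap, and the log2 fold change was -0.80 ± 0.22, or 1.74 times lower, with an adjusted p of 0.189 (0.0238 to 0.606 over the alternatives). Derl3, a derlin abundant in secretory cells, was at 24, 16.6 and 12.3 CPM in MC and 31.4, 11.6 and 51.1 in controls. Its controls spanned the whole range of MC, and the log2 fold change of -0.83 ± 0.49 had an adjusted p of 0.433. Sel1l, the adaptor of the ubiquitin ligase HRD1, was at 1023, 705 and 643 CPM in MC and 1038, 826 and 1804 in controls. Edem1, a lectin that hands over misfolded glycoproteins, was at 477, 306.5 and 219 CPM against 462, 307 and 664. MC control 3 was the highest library for both genes. Syvn1 (HRD1 itself), Derl1 and Derl2 were lower by 0.16 to 0.26 after TMM scaling and above 0 with library size alone.

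The 5 PERK-ATF4 genes had the lowest median of the 5 roles, -0.59, and all 5 stayed below 0 under all 5 scalings. In all, 11 members did so, the others being Eif2ak3, Hspa5, Herpud1, Edem1, Sel1l and Derl3. Atf4 was at 161, 167 and 159 CPM in MC and 252, 205 and 253 in controls, 2 groups that were tight and apart. Its log2 fold change was -0.54 ± 0.14, or 1.46 times lower, with an adjusted p of 0.162 (0.00769 with DESeq2, the lowest, to 0.64). By total counts the groups for Atf4 overlapped. Chac1, which degrades glutathione and is an ATF4 target, was at 16.6, 22.9 and 17.4 CPM in MC and 28.8, 25.9 and 31.3 in controls (-0.60 ± 0.16, adjusted p = 0.178). These groups too were apart, but overlapped by total counts. Ddit3 (CHOP) was at 15.9, 17.7 and 11.5 CPM in MC and 35, 21.3 and 11.6 in controls. MC control 3 lay within the MC range, and the log2 fold change of -0.59 ± 0.37 had an adjusted p of 0.447. Trib3, a pseudokinase induced by CHOP, was at 22.8, 30.6 and 22.1 CPM against 64.7, 44.5 and 26.1, and Asns, asparagine synthetase, at 248, 194 and 176 CPM against 286, 223 and 395. Both overlapped by 1 control library.

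**Figure D2:**
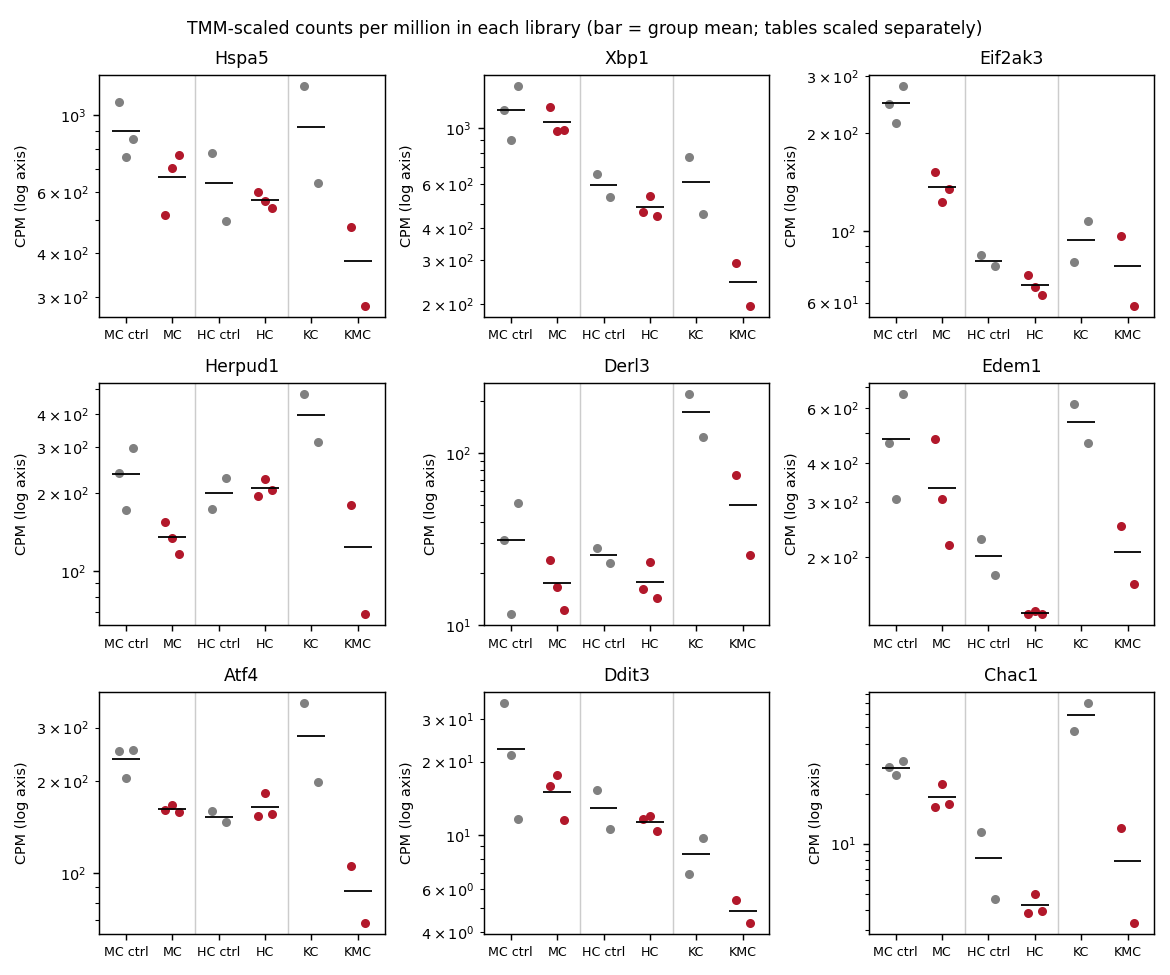
TMM-scaled CPM of 9 members (log vertical axis) in every library of the 6 groups (horizontal axis). Points are libraries, bars are group means, grey marks control or KC libraries and red marks MC, HC or KMC libraries, and vertical lines separate tables that were scaled separately. Eif2ak3, Herpud1, Atf4 and Chac1 had every MC library below every control, and Edem1 was flat at 132 to 135 CPM in libraries labelled HC.

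The control libraries of the MC experiment weighed on these values. Without MC control 2, edgeR called 825 of 14129 genes higher and 150 lower, among them 3 members, all lower (Eif2ak3, Herpud1 and Atf4). The members' median was then -0.41. Without MC control 3 the median was -0.06 and no member was called. Of 11 lists of genes that mark cell types, 3 stood apart between the groups as a share of counts, all higher in MC. The 6 T cell genes summed to 0.00078 to 0.00106% of counts in MC and 0.00012 to 0.00029% in controls, the 5 B cell genes to 0.00032 to 0.00594% and 0.000079 to 0.00018%, and the 5 adipocyte genes to 0.00701 to 0.0163% and 0.00283 to 0.00371%, none at 0. The other 8 lists overlapped. The 29 acinar genes of the MC table, none at 0 in any library, summed to 40.3 to 49.1% of counts in MC and 45.1 to 58.9% in controls. The 9 macrophage genes summed to 0.106 to 0.188% in MC and 0.0388 to 0.153% in controls, and 5 plasma cell genes, cells that also carry a large ER, to 0.0208 to 0.0269% and 0.00826 to 0.0212%. Their part in the members' values was not tested. The log2 ratio of summed member counts to summed acinar counts, which needs no scaling, was -6.03, -5.52 and -5.56 in MC and -6.07, -5.78 and -6.22 in controls. The groups overlapped, and the means differed by 0.32, with members higher relative to acinar enzymes in MC. With mean log2 CPM of each list in place of sums, the means differed by 0.08 and the groups overlapped.

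In the HC experiment the members lay close to the controls. After TMM scaling 13 were higher and 21 lower in libraries labelled HC, with a median of -0.07 against -0.0011 over the 18407 genes tested. No member was among the 0.739% of genes that edgeR called. At an unadjusted p under 0.05 there were 3 members, all lower (Edem1, Eif2ak3 and Chac1), against 7.47% of all genes. DESeq2 called Edem1, 1 member, lower, against 2.8% of all genes. Groups were apart with the labelled libraries lower in 3 members (Eif2ak3, Edem1 and Sel1l) and higher in 2 (Ern1 and Sec61a1), against 16.1% and 17.5% of all genes, so neither count stands out from its background.

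Edem1 was at 132, 135 and 132 CPM in libraries labelled HC and 228 and 176.5 in controls. All 3 labelled libraries lay within 3 CPM of each other and below both controls. The log2 fold change was -0.61 ± 0.13, or 1.52 times lower, with an adjusted p of 0.109 (0.00521 with DESeq2 and 0.0393 without the filter, up to 0.744 in the fit that also held the KMC table). Sel1l was at 402, 374 and 304 CPM against 445.5 and 442 (-0.30 ± 0.15). Derl3 was at 16.1, 23.3 and 14.3 CPM against 28 and 22.8, overlapping by 1 library (-0.51 ± 0.23, adjusted p = 0.348). Herpud1 was at 195, 226 and 205 CPM against 173 and 228, with no difference beyond the spread (0.06 ± 0.15).

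Eif2ak3 was at 73.2, 67.1 and 63.4 CPM in libraries labelled HC and 84.1 and 77.7 in controls (-0.25 ± 0.10, adjusted p = 0.309), groups that were apart by a small margin. Ern1 was at 96.4, 86.7 and 90.6 CPM against 84.5 and 78.2, higher in each labelled library (0.17 ± 0.10). Xbp1 was at 466, 537.5 and 449 CPM against 656 and 533, overlapping by a few CPM (-0.30 ± 0.16, adjusted p = 0.418). The sensors therefore differed in sign among themselves, with Atf6 level (0.02 ± 0.09), although that of Atf6 flipped with library size alone.

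Of the chaperones, Hspa5 was at 600, 568 and 541 CPM in libraries labelled HC and 780 and 496.5 in controls. The controls enclosed the labelled libraries, and the log2 fold change of -0.16 ± 0.21 (adjusted p = 0.767) became 0.20 without HC control 1. Creld2, a secreted and ER-resident UPR target, had the smallest p of its role at 47.7, 47.6 and 37.8 CPM against 66.2 and 45.8 (-0.33 ± 0.19, adjusted p = 0.441). P4hb was at 946.5, 1297 and 1075 CPM against 958 and 861 (0.28 ± 0.19). Sec61b was at 67.8, 91.7 and 72.2 CPM against 79.3 and 59.9 (0.15 ± 0.18, adjusted p = 0.744). Sec61a1 was at 249, 264 and 241 CPM against 236 and 226 (0.12 ± 0.11, adjusted p = 0.639). It was higher in each labelled library, and all 3 translocon genes were above 0 under all 5 scalings.

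The PERK-ATF4 genes had a median of -0.19. Chac1 was at 3.84, 4.99 and 3.9 CPM in libraries labelled HC and 11.8 and 4.61 in controls, so its log2 fold change of -0.95 ± 0.39 (adjusted p = 0.315) rested on HC control 1. Ddit3 was at 11.6, 11.9 and 10.4 CPM against 15.3 and 10.6 (-0.19 ± 0.20, adjusted p = 0.695) and became 0.09 without the same control. Atf4, at 154, 183 and 157 CPM against 159 and 147, was 0.11 ± 0.12 above the control on the log2 scale. Without HC control 1, the members' median turned to 0.09 with 25 of 34 higher. The 6 plasma cell genes summed to 0.127 to 0.137% of counts in libraries labelled HC and 0.182 and 0.228% in controls, with none at 0, and the 9 macrophage genes to 0.164 to 0.254% and 0.273 and 0.441%. The 5 B cell genes were also lower in each labelled library. In the other direction, 10 stomach and gut genes, at most 1 at 0 in a library, summed to 0.950 to 0.960% in libraries labelled HC and 0.285 and 0.438% in controls, the 8 ductal genes to 0.550 to 0.668% and 0.492 and 0.541%, and the 7 islet genes to 0.347 to 0.553% and 0.291 and 0.326%. The other 5 of the 11 lists overlapped. Their part in these values was not tested. The log2 ratio of summed member counts to summed acinar counts was -3.47, -3.72 and -3.36 in libraries labelled HC and -3.57 and -3.46 in controls, so the groups overlapped and their means were equal to 2 decimals. With mean log2 CPM of each list in place of sums, labelled libraries minus controls gave -0.115, and the groups overlapped.

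Whether M46 and HPK1 differed in their effect was tested as 1 difference in a joint fit of both experiments, since experiment, age and library kit cannot be told apart from the transgene. No member was among the 2.49% of 14884 genes called by edgeR. At an unadjusted p under 0.05 there were 5 members, all with the lower effect in MC (Eif2ak3, Ern1, Dnajb9, Herpud1 and Atf4), against 8.43% of all genes in that direction. Over the 34 members the difference was below 0 in 25, with a median of -0.24 against -0.03 over all genes. With library size alone it was above 0 in 25, with a median of 0.18 against 0.34 over all genes. At an unadjusted p under 0.05 there was then 1 member above 0 and 0 below, against 2098 and 174 of all 14884 genes. For Atf4 the MC effect minus the HC effect was -0.66 ± 0.19 on the log2 scale (adjusted p = 0.0837, over the alternatives 0.0101 to 0.628). DESeq2 called Atf4 and Eif2ak3, against 3.64% of all genes called in that direction. The difference for Eif2ak3 was -0.62 ± 0.20 (adjusted p = 0.117) and that for Herpud1 -0.87 ± 0.30 (adjusted p = 0.140). These 3 differences kept their sign with library size alone, at -0.25, -0.22 and -0.44.

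**Figure D3:**
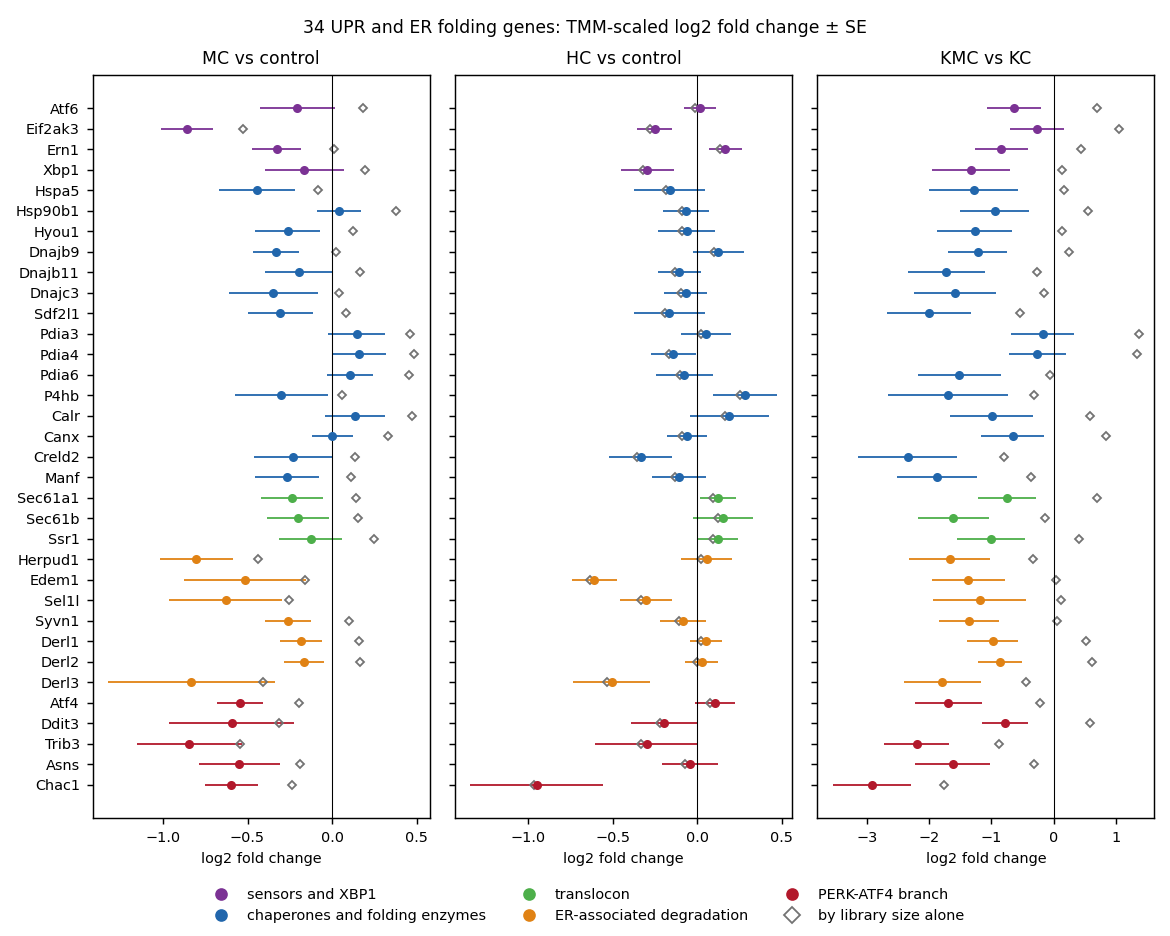
Log2 fold change of each of the 34 members (rows, colored by role) in the 3 comparisons (panels), with TMM scaling as filled circles and bars of 1 SE, and with library size alone as open diamonds. In KMC against KC all 34 circles lie below 0 and 20 diamonds above it, whereas in the HC panel circles and diamonds nearly coincide.

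The KMC comparison asks what M46 adds to the KC genotype. After TMM scaling all 34 members were below KC, with a median log2 fold change of -1.31 against 0.03 over the 15733 genes tested, and 22 of them were at least 1 below on the log2 scale. No member was among the 3 genes (0.0191%) called by edgeR. At an unadjusted p under 0.05 there were 17 members, all lower, against 9.48% of all genes. DESeq2 called 18 members lower against 3.86% of all genes. Both KMC libraries were below both KC libraries in 30 members, against 30.9% of all genes, and above in none, against 34.4%.

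This direction depended on the scaling. Scaling by total counts, which moved the median of all genes to 1.47, put the members' median at 0.13, with 20 higher and 14 lower. Library size without acinar genes gave a median of -0.72 with 31 lower, and the housekeeping list -0.67 with 31 lower. Relative to the median of all genes the members were low under each of these. Below 0 under all 5 scalings were 14 members: Dnajb11, Dnajc3, Sdf2l1, Pdia6, P4hb, Creld2, Manf, Sec61b, Herpud1, Derl3, Atf4, Trib3, Asns and Chac1. By total counts, both KMC libraries were below both KC libraries in 4 members (Herpud1, Derl3, Atf4 and Chac1), against 1.28% of all genes, and above both in 12, against 85% of all genes.

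**Figure D4:**
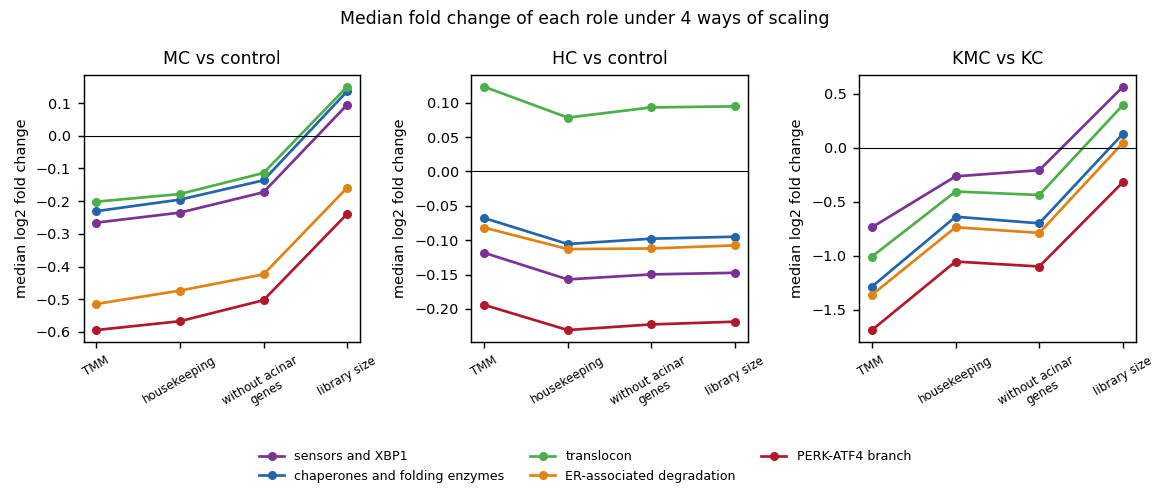
Median log2 fold change (vertical axis) of the members of each role under 4 ways of scaling the libraries (horizontal axis), in 1 panel for each comparison. The PERK-ATF4 branch has the lowest median in every panel and under each scaling, and it alone stays below 0 with library size alone in KMC against KC (-0.32).

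Chac1 was the member lowest in KMC under each scaling. It was at 12.4 and 3.34 CPM in KMC and 47.7 and 70.6 in KC, groups far apart. The log2 fold change was -2.92 ± 0.63, or 7.56 times lower, with an adjusted p of 0.0796. It was -1.76 with library size alone, -2.43 without acinar genes and -2.47 with the housekeeping list. Each of these passed the edgeR test (adjusted p = 0.04998, 0.0356 and 0.0134). Under these 3 scalings edgeR called 4714, 1700 and 1235 of all 15733 genes, with 20, 26 and 24 of them lower. The median of all genes was then 1.47, 0.60 and 0.52. Trib3 was at 2.75 and 2.97 CPM in KMC and 6.88 and 19.3 in KC (-2.20 ± 0.52, adjusted p = 0.0886), apart but with KC libraries far from each other. Atf4 was at 106 and 68.7 CPM in KMC and 363 and 199 in KC (-1.69 ± 0.54, adjusted p = 0.132). Asns was at 146 and 56.6 CPM against 347 and 275 (-1.62 ± 0.60). Ddit3 had the smallest difference of the branch, at 5.41 and 4.36 CPM against 6.94 and 9.71 (-0.78 ± 0.37, adjusted p = 0.226), and stood at 0.58 with library size alone.

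All 7 ERAD genes were apart and lower in KMC after TMM scaling. Derl3 was at 74.5 and 25.5 CPM in KMC and 221 and 124 in KC (-1.78 ± 0.62, adjusted p = 0.145). Herpud1 was at 180 and 68.5 CPM against 478 and 314 (-1.67 ± 0.65), Edem1 at 252 and 165 against 615 and 464 (-1.37 ± 0.59), and Sel1l at 707 and 312 against 1249 and 1076 (-1.19 ± 0.75). With library size alone only Derl3 (-0.45) and Herpud1 (-0.34) of the 7 stayed below 0.

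All 15 chaperones and folding enzymes were below KC after TMM scaling and 8 were above it with library size alone, and they ranged from Creld2 to Pdia3. Creld2 was at 49 and 24.2 CPM in KMC and 311 and 61 in KC, and the KC libraries differed from each other more than KC 2 did from KMC 1 (-2.35 ± 0.79, adjusted p = 0.140). Sdf2l1, which works with Hsp40 co-chaperones of BiP, was at 68.3 and 30 CPM against 296 and 97.5 (-2.0 ± 0.68), and Manf, a secreted factor released on ER stress, at 75.5 and 41.2 against 318 and 107 (-1.86 ± 0.64). P4hb, the most abundant member, was at 1248 and 537 CPM against 3795 and 1996 (-1.70 ± 0.96). Hspa5 was at 478 and 283 CPM against 1218 and 637 (-1.29 ± 0.71, adjusted p = 0.283), and 0.16 with library size alone. At the other end, Pdia3 was at 183 and 199 CPM against 269 and 163 and Pdia4 at 63.2 and 82.1 against 116 and 58.8, groups that overlapped, with log2 fold changes of -0.18 ± 0.50 and -0.27 ± 0.46 that became 1.37 and 1.34 with library size alone.

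Of the sensors, Eif2ak3 was at 96.7 and 58.7 CPM in KMC and 79.9 and 107 in KC, overlapping (-0.27 ± 0.43). The groups for Atf6 (-0.63 ± 0.43) and Ern1 (-0.84 ± 0.42) were apart after TMM scaling. With library size alone Eif2ak3 (1.04), Atf6 (0.69) and Ern1 (0.44) were all above KC. By total counts Eif2ak3 and Atf6 were apart and higher in KMC, and Ern1 overlapped. Xbp1 was at 291 and 197 CPM in KMC and 771 and 456 in KC (-1.33 ± 0.62, adjusted p = 0.224), apart after TMM scaling but 0.13 above KC with library size alone. Sec61b was at 79.3 and 44.9 CPM against 263 and 116 (-1.61 ± 0.57, adjusted p = 0.148). Its fold change was -0.14 with library size alone, whereas Sec61a1 (-0.75 ± 0.46) and Ssr1 (-1.01 ± 0.55) turned positive.

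The acinar share of counts was 50.9 and 25.7% in KMC and 70.8 and 61.9% in KC, with none of the 30 genes at 0. The log2 ratio of summed member counts to summed acinar counts was -6.09 and -5.11 in KMC and -6.57 and -6.54 in KC, so relative to acinar enzymes the members were higher in both KMC libraries, by 0.96 in the means. With mean log2 CPM of each list in place of sums, the difference was 1.135 and the groups were apart. The 9 macrophage genes summed to 0.124 and 0.668% of counts in KMC and 0.0177 and 0.0242% in KC, and the 6 plasma cell genes to 0.0167 and 0.0347% and 0.00267 and 0.00684%, none at 0. The 8 fibroblast genes, which mark cells that also secrete, summed to 0.266 and 1.37% in KMC and 0.0210 and 0.0679% in KC, and the 8 ductal genes to 0.0770 and 0.190% and 0.0260 and 0.0349%. In all, 8 of the 11 lists were apart and higher in KMC (T cell, B cell, islet and erythroid genes were the others), 2 apart and lower (acinar, and stomach and gut) and 1 overlapped. Their part in the members' values was not tested, and genotype, age and sex cannot be told apart in this comparison. Without KC 1 the members' median was -0.90, and without KMC 1 it was -1.81.

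A wider set of 81 genes of the same pathways, 80 of them in all 3 tables (all but Ern2), is given by role. In MC, all 24 genes of the wider integrated stress response list were below the control (median -0.41), 13 of them with groups apart, 12 at an unadjusted p under 0.05 and 5 called by DESeq2, against 9.89%, 5.46% and 0.632% of all genes. With library size alone 15 of the 24 were lower. The wider folding (12 of 16 lower), translocation and transport (15 of 20) and degradation (12 of 12) lists had medians of -0.22, -0.16 and -0.23. The medians of wider degradation and wider folding were thus close, unlike those of the members (-0.51 for ERAD and -0.23 for chaperones). With library size alone the medians of these 3 wider lists were above 0. Shmt2, a mitochondrial serine enzyme, had a log2 fold change of -0.79 ± 0.14 (adjusted p = 0.0840) and Eif4ebp1, a translation repressor, -0.64 ± 0.13 (adjusted p = 0.106). On the other side, Agr2, a disulfide isomerase of mucus-secreting cells, was 2.15 ± 0.53 above the control (adjusted p = 0.156) and Erp29 0.07 ± 0.12. Agr2 was the 1 gene of the 80 with groups apart and higher, against 10.9% of all genes. It was also the 1 that DESeq2 called higher, among 540 genes called higher in all.

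In the HC experiment 44 of the 80 wider genes were higher and 36 lower. None was called by edgeR or DESeq2, and 5 were higher and 5 lower at an unadjusted p under 0.05. Of all 18407 genes tested, 1544 were higher and 1375 lower at that p, and edgeR called 136. DESeq2 called 702 genes higher and 481 lower. Ero1a, an ER oxidase, was 0.32 ± 0.10 above the control (adjusted p = 0.199) and Slc7a11, the cystine transporter, 0.72 ± 0.24 above (adjusted p = 0.224), whereas Shmt2 was at -0.46 ± 0.14 (adjusted p = 0.195) and Slc3a2 at -0.29 ± 0.10 (adjusted p = 0.233). In KMC 78 of the 80 were below KC after TMM scaling (median -1.17), 22 with library size alone, and DESeq2 called 30 lower, against 3.86% of all genes. The wider integrated stress response list (median -1.19) was not the lowest there, with folding at -1.27 and translocation and transport at -1.28, and its median was 0.15 with library size alone. Psat1, of serine synthesis, was at -2.19 ± 0.53 (adjusted p = 0.0937) and Eif4ebp1 at -1.77 ± 0.43 (adjusted p = 0.0941), both on the log2 scale. The only genes of the 80 above KC after TMM scaling were Cebpb (1.03 ± 0.51, adjusted p = 0.241) and Creb3l2 (0.14 ± 0.35, adjusted p = 0.820).

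Of the 6 members apart and lower in MC after TMM scaling, 5 (all but Eif2ak3) were also apart and lower in KMC, where 30 of all 34 were, so this count does not exceed that share. By total counts Herpud1 was the 1 member apart and lower in both, of 3 in MC and 4 in KMC. The difference between mean log2 CPM of the PERK-ATF4 genes and of the chaperones, a contrast within each library chosen after the values were seen, was -1.72, -1.63 and -2.02 in MC and -1.03, -1.27 and -1.73 in controls. The groups overlapped by 2 MC libraries. In KMC it was -2.84 and -2.94 against -3.02 and -1.60 in KC, where KC libraries enclosed both KMC libraries. In libraries labelled HC it was -3.34, -3.01 and -3.23 against -3.01 and -2.96.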

How the data were processed

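RNA-Seq reads had been aligned by the authors to GRCm38 with STAR (version 2.6.1a in the submitters' processing notes, which also name HTSeq 0.6.1), and the deposited values were raw counts per GENCODE gene in 3 tables, without normalization. The authors' table of fold changes and p-values for MC was not used. Members and lists were chosen with earlier results of these data known. Samples were grouped by their labels. An allele of the KC and KMC mice is not reported here. Within each table, genes were filtered with filterByExpr (minimum count 10), scaled by TMM, and the quasi-likelihood test of edgeR 4.0.16 (R 4.3.3) was applied, with Benjamini-Hochberg adjustment over all genes tested and a threshold of 0.05 with no fold limit. The study itself used DESeq2 and required a log2 change of 1 or more in size. SE was obtained from the log2 fold change and its F statistic, as their ratio after taking the root of F. CPM are TMM-scaled unless total counts are named. The M46 and HPK1 effects were compared by a contrast in 1 fit over the MC and HC tables. In ratios of mean log2 CPM, 0.5 was added to CPM.

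Values per library are given for Hspa5, Xbp1, Ddit3, Sec61b, Derl3 and the member of each role with the smallest p, and of the wider lists the 2 genes with the smallest p in each direction are named. Other members with values per library were chosen after their values were seen. Alternatives were DESeq2 1.42.0, a newer form of the edgeR fit, 4 other scalings, no filter, the replicate number as a block, 1 fit over the HC and KMC tables, and leaving out each library. The test was run on simulated data with 200 genes changed by a log2 fold of 2. It recovered 96% of them in the MC design (13902 genes), 92% in HC (18407 genes) and 53% in KMC (15733 genes). It also called 15, 21 and 14 unchanged genes. No member reached a log2 change of 1 in size in MC or HC, so these rates do not show how often changes of the members' size would be called there. Library totals of 29766575 to 38745907 counts set the counting precision, and 2 or 3 libraries per group set that of the comparisons. Promoter windows came from RefSeq and were searched for fixed letters on both strands.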

Additional observations from a re-analysis of the deposited data

How the results depend on the processing

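With edgeR, no member was called in the 3 comparisons or in the difference of effects. DESeq2 called 4 members in MC, 1 in HC, 18 in KMC and 2 in the difference. In HC, 1 was called without the filter, where 679 of all 31252 genes were called. In KMC, 1 was called with library size alone, 1 without acinar genes, 1 with the housekeeping list and 20 in the fit that also held the HC table. All of these members were lower. Of all 15733 genes, the first 3 fits called 4714, 1700 and 1235, with 20, 26 and 24 of them lower. The last called 4026 of 18681 genes, 1545 of them lower. Leaving out 1 library at a time gave 0 to 3 calls in MC and in the difference, 3 in both without MC control 2, and 0 to 7 in KMC, 7 without KMC 1. With 1 library left in an arm, that library is assumed to vary like the others.

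The members' median log2 fold change in MC was 0.11 with library size alone, and -0.41 to -0.06 when each library was left out. In HC it ranged from -0.195 to 0.089, positive without HC control 1. In KMC it was 0.13 with library size alone and -0.67 with the housekeeping list, and -1.81 to -0.90 when each library was left out. The log2 ratio of members to acinar genes, treated minus control, was 0.22 to 0.48 in MC, -0.079 to 0.10 in HC (positive without HC 2 and without HC control 2) and 0.47 to 1.45 in KMC when each library was left out. As an exact permutation test over libraries it could not reach 0.05 in any comparison and was not run.

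Library size alone turned the log2 fold changes of Xbp1 (0.19), Sec61b (0.15), Dnajb9 (0.025) and Sec61a1 (0.14) in MC and of Hspa5 (0.16), Xbp1 (0.13) and Ddit3 (0.58) in KMC. Leaving out 1 library at a time gave -0.34 to 0.038 for Xbp1 in MC (positive without MC control 3). In HC it gave -0.45 to 0.20 for Hspa5, -0.44 to 0.093 for Ddit3 (both positive without HC control 1) and -0.039 to 0.37 for Sec61b (negative without HC control 2). Over all alternatives for the named members, 331 values had the reported direction and stayed above the threshold, 29 had that direction and passed it (10 of them with DESeq2), and 11 turned. The cause was not tested.

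Replicate numbers are shared by the groups, but the deviations of same-numbered libraries from their group means correlated at -0.297 to 0.296 in MC, 0.170 to 0.189 in HC with only 2 pairs, and 0.0514 in KMC, so the numbers were not taken as pairs. With the number as a block 13 members were called in KMC, all lower, against 1663 genes higher and 801 lower of 15733. With that block 0 members were called in MC and in HC, against 0 of 13902 genes in MC and 468 of 18407 in HC.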
